A study of Homo sapiens with 6 samples.

Results

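The integrin and laminin subunits were taken as the genes whose symbol names an integrin alpha chain, an integrin beta chain or a laminin alpha, beta or gamma chain. Of the 20289 genes in the table, 38 fitted that rule: 18 integrin alpha chains, 8 integrin beta chains, 5 laminin alpha chains, 4 laminin beta chains and 3 laminin gamma chains. The 6 libraries of RNA carry the cell line label T24, a human bladder cancer line. Cells of the first group (Vector, n = 3) received control plasmids and carry the genotype label control. Those of the second group (LINC00665, n = 3) received a pcDNA3.1 plasmid that carries the long non-coding RNA gene LINC00665, and the genotype label names its overexpression. Both groups were grown in RPMI medium with fetal bovine serum and transfected with a lipid reagent, and neither a harvest time nor a selection step is given in the sources used here. The study asked how the expression profile of the cells differs between the groups, in work on lymph node metastasis of bladder cancer.

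Integrins are cell surface receptors made of 1 alpha and 1 beta chain, and the pair decides which matrix protein or cell surface partner is bound. Laminins are the cross-shaped proteins of basement membranes, made of 1 alpha, 1 beta and 1 gamma chain and named by the numbers of those chains, so that laminin-511 holds α5, β1 and γ1. In the urothelium, as in skin, basal cells sit on a laminin-rich basement membrane. There α6β4 integrin binds laminin in hemidesmosomes, and α3β1 integrin binds it outside them.

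The libraries held 17289788 to 22725687 expected counts. Of 13552 genes tested, 8611 differed between the groups (63.5%), 4634 of them higher in LINC00665 (34.2%) and 3977 lower (29.3%), by edgeR's quasi-likelihood test at an adjusted p of 0.05. A check of the libraries against the labelled line found 3 of 6 that did not match it. No fit without those libraries was possible, so cell line and plasmid cannot be told apart in any difference given here. Of 20 urothelial markers, 8 had a mean of 1 CPM or more in Vector and 17 in LINC00665, with summed levels of 1830 to 4161 and 11809 to 14091 CPM. KRT14, KRT20, GRHL3 and UPK3A had no count in Vector, and KRT20 had none in LINC00665. Of 20 kidney tubule markers, 5 reached 1 CPM in Vector and 2 in LINC00665, with sums of 382 to 545 and 18.5 to 21.1 CPM, and the part of these markers in the results was not tested. LINC00665 itself was not analysed here. The spread between libraries was wider in Vector, with a biological coefficient of variation of 28.6% against 12.9%. The design text names 3 independent experiments. In bulk RNA, fewer cells of a type and less RNA per cell cannot be told apart.

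Levels of one gene are given as CPM, counts scaled to a common library size after correction by TMM (the trimmed mean of M-values), and differences as log2 fold changes of LINC00665 over Vector with their standard errors. The standard error was derived from the test, as the size of the log2 fold change over the square root of the F statistic. It is approximate, and for genes with a few counts in one group, such as LAMA4 and ITGA10, it is too small. Different genes are compared on FPKM, the deposited values per kilobase of transcript and library size. Of the 38 members, 29 had enough counts to be tested: 17 were higher in LINC00665, 7 were lower and 5 did not pass the test, while 9 were too low to test. The background for these counts is the 34.2% of all tested genes that were higher and the 29.3% that were lower. Both the test and a log2 fold change of at least 1 in size were met by 21 members, against 42% of all tested genes. The 3 libraries of one group lay entirely above or below the other in 24 of the 29, which is 82.8%, against 70.2% of all tested genes. Of the 17 higher members, ITGA7, ITGB6, ITGB7, LAMA1 and LAMA4 passed the filter only through the LINC00665 libraries, and of the 7 lower ones ITGA10 and ITGA11 passed only through Vector. Those 7 genes had to differ in the direction they did. The median log2 fold change of the tested members was 1.45, against 0.03 for all tested genes.

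Stretches at annotated starts are shown for 4 laminin chains that were among the most changed members and that RefSeq lists. They were read from RefSeq windows on GRCh38.p14, and each gives the 150 bases just before the annotated start, 5′ to 3′ on the strand of the gene. Capitals mark matches to the AP-1 motif TGANTCA, which reads the same on both strands. The LAMA3 stretch lies at chr18:23872870-23873019 (+ strand), the LAMB3 stretch at chr1:209651375-209651524 (- strand), the LAMA4 stretch at chr6:112254568-112254717 (- strand) and the LAMB1 stretch at chr7:108003162-108003311 (- strand).
LAMA3: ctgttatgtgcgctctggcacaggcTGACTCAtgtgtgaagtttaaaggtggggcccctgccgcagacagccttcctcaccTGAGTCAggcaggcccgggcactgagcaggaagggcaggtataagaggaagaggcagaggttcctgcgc
LAMB3: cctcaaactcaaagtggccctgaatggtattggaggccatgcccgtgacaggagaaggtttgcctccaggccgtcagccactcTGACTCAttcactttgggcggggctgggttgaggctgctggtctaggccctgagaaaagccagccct
LAMA4: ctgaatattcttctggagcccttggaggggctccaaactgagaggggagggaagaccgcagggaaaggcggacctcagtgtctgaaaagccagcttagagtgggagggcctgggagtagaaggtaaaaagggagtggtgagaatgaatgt
LAMB1: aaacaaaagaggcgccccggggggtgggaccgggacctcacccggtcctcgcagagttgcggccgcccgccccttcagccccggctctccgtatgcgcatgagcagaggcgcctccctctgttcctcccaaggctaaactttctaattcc
AP-1, a dimer of Fos and Jun proteins, is known to act on many epithelial adhesion genes. In whole windows of 300 bases (250 before the start and 50 after it), the motif was found in 7.71% of 35116 RefSeq starts. Of the members, 26 had at least 1 window, and 3 of their 33 windows held a match, each for a different member. LAMA3 had matches beginning 125 and 69 bases before its start, and ITGA5 had 1 at 6 bases before its start. LAMB3 had 1 at 67 bases before the most downstream of its 3 listed starts. LAMA4 and LAMB1 held none. No entry was found for 12 members, ITGB4 among them. The start RefSeq lists for LAMA3 is an internal one, and GENCODE v29 begins its 5.67 kb LAMA3 transcript 180 bases further upstream, so the printed LAMA3 stretch lies inside that transcript. GENCODE v29 begins the LAMB3 gene at 209652466, LAMA4 at 112254939 and LAMB1 at 108003255. The LAMB3 and LAMA4 stretches therefore also lie inside their genes, and the LAMB1 stretch does in part. A match is a description of these letters and not evidence of binding.

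Among the integrin alpha chains, 11 of 18 were tested, 5 were higher in LINC00665 and 4 lower, against 34.2% and 29.3% of all tested genes. ITGA3, the chain of a laminin receptor that pairs with β1, was at 793, 785 and 347 CPM in the Vector libraries and at 2083, 1423 and 1745 CPM in the LINC00665 libraries. The groups did not overlap, although Vector replicate 3 lay well below the other Vector libraries, and ITGA3 rose 2.73-fold (log2 fold change 1.45 ± 0.31 SE, edgeR adjusted p = 0.0038). ITGA6, a laminin receptor chain that pairs with β1 or β4, was at 106, 106 and 163 CPM in Vector and at 578, 431 and 468 CPM in LINC00665. It rose 3.95-fold with no overlap (1.98 ± 0.22, adjusted p = 9.5e-05).

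The collagen-binding alpha chains moved in both directions. ITGA2, the collagen and laminin receptor chain of epithelia and platelets, was at 40, 35.2 and 36.1 CPM in Vector and at 207, 145 and 164 CPM in LINC00665, a 4.63-fold rise without overlap (log2 fold change 2.21 ± 0.17, edgeR adjusted p = 1.5e-05). ITGA1, the other older member of that group, had 9.84, 11.4 and 4.45 CPM in Vector and 24.9, 20.2 and 27.7 CPM in LINC00665, and it rose 2.83-fold without overlap (1.50 ± 0.33, adjusted p = 0.0041). The 2 genes are neighbours on chromosome 5, 30.1 kb apart, and ITGA1 shares exon sequence with PELO on the same strand, so reads of the latter could not be told apart with certainty.

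ITGA10, known as a chondrocyte collagen receptor chain, and ITGA11, known from fibroblasts, went the other way. ITGA10 had 9.42, 14.7 and 10.2 CPM in Vector and 0.186, 0.0525 and 0.162 CPM in LINC00665, where the 3 libraries together held 8 counts. ITGA11 had 13.4, 25 and 7.61 CPM in Vector and 0.419, 0.841 and 0.431 CPM in LINC00665. Neither pair of groups overlapped, and the mean CPM was 85.8 times lower for ITGA10 (log2 fold change -6.34 ± 0.40, edgeR adjusted p = 4.4e-06) and 27.2 times lower for ITGA11 (-4.76 ± 0.53, adjusted p = 0.00011).

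The alpha chains that bind the RGD motif of fibronectin and vitronectin differed less. ITGA5, the fibronectin receptor chain, was at 80.7, 157 and 39.7 CPM in Vector and at 166, 154 and 160 CPM in LINC00665. Vector replicates 1 and 3 lay below the tight LINC00665 values and replicate 2 within them, the groups overlapped and the gene did not pass the test (log2 fold change 0.79 ± 0.41, edgeR adjusted p = 0.12). Without Vector replicate 2 its log2 fold change was 1.41 and the adjusted p 0.0025. ITGAV, the partner of β1, β3, β5, β6 and β8, was at 113, 67 and 128 CPM in Vector and at 79.6, 54.9 and 57.5 CPM in LINC00665. It fell by 0.68 ± 0.26 on the log2 scale (adjusted p = 0.047) with overlapping groups, and the call was lost without Vector replicate 1 or 3 or LINC00665 replicate 2 or 3 (adjusted p 0.11 to 0.15).

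The remaining tested alpha chains were low. ITGAE, the α chain of the lymphocyte receptor for E-cadherin, fell by 0.75 ± 0.22 on the log2 scale, from 6.25 ± 1.07 to 3.72 ± 0.0846 CPM (SD, n = 3, edgeR adjusted p = 0.017). That call was lost without Vector replicate 1, LINC00665 replicate 1 or LINC00665 replicate 3 (adjusted p 0.053 to 0.068), and exons of ITGAE overlap HASPIN on the opposite strand. ITGA7, a laminin receptor chain of muscle, was at 0.584 ± 0.105 CPM in Vector and 1.33 ± 0.25 CPM in LINC00665 (log2 fold change 1.18 ± 0.35, adjusted p = 0.017). It was no longer past the threshold without Vector replicate 1 or LINC00665 replicate 1 or 3 (adjusted p 0.062 to 0.074), or with the replicate number as a block (adjusted p = 0.08). In limma fits on log2 FPKM its log2 fold change was 0.19 with a pseudocount of 1 and 0.55 with 0.1 (adjusted p 0.26 and 0.23). ITGA2B, the platelet chain, was at 2.3 ± 0.921 and 3.35 ± 0.743 CPM and did not pass the test (adjusted p = 0.2). It passed without Vector replicate 3, with a log2 fold change of 0.91 in place of 0.54 (adjusted p = 0.033). Of the 7 untested alpha chains, ITGA8, ITGAD and ITGAX had no count in any library. ITGA4 and ITGA9 had none in Vector and 9 each in LINC00665, where replicate 2 held no ITGA4 count. Set against a floor of 3 counts over the Vector group, both were 2.98-fold higher, with no error put on the 9 counts. ITGAM had 10 counts in Vector and 5 in LINC00665. ITGAL had 14 and 2, 7.04 times more in Vector (95% counting interval 1.62 to 63.8).

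**Figure D1:**
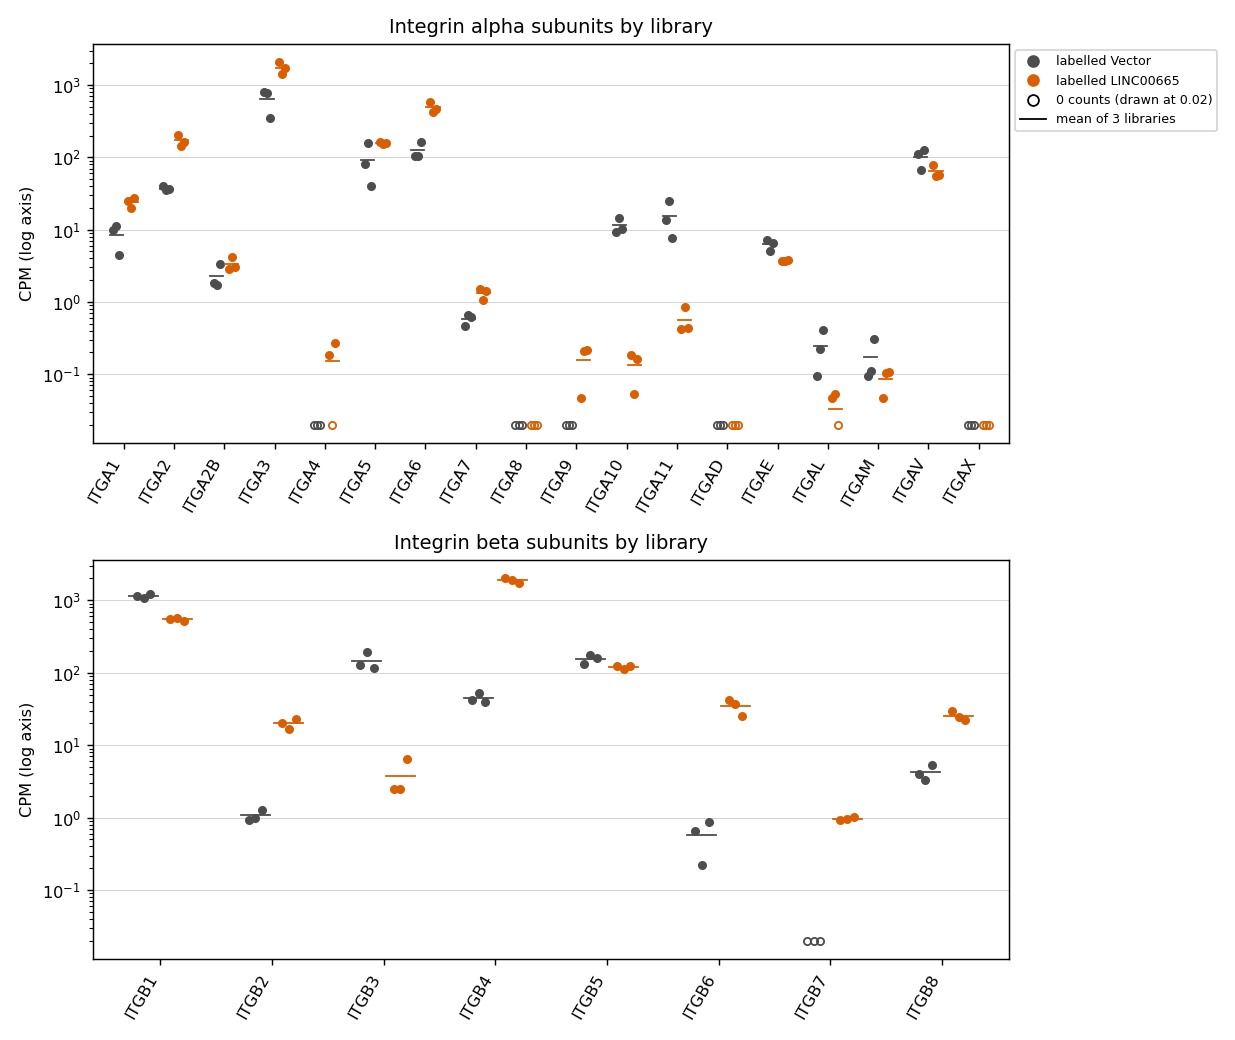
Integrin alpha chains (top) and beta chains (bottom) in each library, as CPM on a log axis. Points are the 3 Vector (grey) and 3 LINC00665 (orange) libraries, lines are group means, and open points are libraries with 0 counts. The groups lie apart for all 8 beta chains, as they do for 70.2% of all tested genes, and ITGB5 did not pass the test. ITGB4 lies near 45.1 CPM in Vector and 1890 CPM in LINC00665.

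All 8 integrin beta chains were tested, 5 were higher in LINC00665, 2 were lower and ITGB5 did not pass the test. Of all tested genes, 34.2% were higher and 29.3% lower. ITGB4, the hemidesmosome chain with the long cytoplasmic tail, was at 42.7, 53 and 39.5 CPM in Vector and at 2023, 1915 and 1731 CPM in LINC00665. Every LINC00665 library lay far above every Vector library, and the gene rose 41.9-fold (log2 fold change 5.39 ± 0.19, edgeR adjusted p = 2.4e-07). ITGB1, the shared partner of most alpha chains, was at 1152, 1062 and 1237 CPM in Vector and at 552, 570 and 514 CPM in LINC00665. It fell by 1.08 ± 0.13 on the log2 scale with no overlap (adjusted p = 0.00016).

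Partners of αV moved in opposite directions. ITGB3, the vitronectin receptor chain of platelets, osteoclasts and growing vessels, was at 127, 194 and 118 CPM in Vector and at 2.47, 2.52 and 6.41 CPM in LINC00665. Its mean was 38.6 times lower in LINC00665 with no overlap (log2 fold change -5.27 ± 0.43, edgeR adjusted p = 1.8e-05), and its exons overlap AC068234.1 on the same strand. ITGB6, an epithelial chain that activates latent TGF-β, had 0.653, 0.222 and 0.88 CPM in Vector and 42.4, 36.7 and 25.5 CPM in LINC00665. It rose 59.6-fold (5.87 ± 0.40, adjusted p = 6.5e-06). ITGB8, the other TGF-β activating chain, had 4.06, 3.28 and 5.28 CPM in Vector and 29.8, 24.5 and 22.5 CPM in LINC00665, a 6.09-fold rise (2.60 ± 0.23, adjusted p = 2.9e-05). Neither of these chains showed overlap between the groups. ITGB5, a further vitronectin receptor chain, was at 131, 174 and 158 CPM in Vector and at 123, 111 and 125 CPM in LINC00665. Its groups did not overlap, yet it missed the threshold (-0.37 ± 0.15, adjusted p = 0.065), and without Vector replicate 1 it passed (-0.47, adjusted p = 0.032).

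The leukocyte beta chains were also higher in LINC00665. ITGB2, the common beta chain of white blood cells, was at 0.932, 1 and 1.29 CPM in Vector and at 20.2, 16.8 and 22.9 CPM in LINC00665, an 18.6-fold rise without overlap (log2 fold change 4.21 ± 0.24, edgeR adjusted p = 2.5e-06). Its known partners ITGAL, ITGAM, ITGAX and ITGAD had between 0 and 5 counts over the 3 LINC00665 libraries. ITGB7 had no count in Vector and 57 in LINC00665, 18.9-fold higher when set against the 3-count floor (adjusted p = 0.00041). Leukocyte markers summed to 10.9 to 17.2 CPM in Vector and 118 to 189 CPM in LINC00665, with 1 and 4 of 15 at 1 CPM or more, while PTPRC, CD3D, CD2, MS4A1, LYZ, FCGR3A, NKG7 and TYROBP had no count in LINC00665. ITGB2 overlaps its antisense gene ITGB2-AS1, and ITGB7 overlaps ZNF740 on the opposite strand.

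On the FPKM scale, which allows chains to be ranked, the leading beta chain differed between the groups. ITGB1 held 80.2% ± 4.12 of the summed beta chain FPKM in Vector and 26% ± 0.84 in LINC00665 (SD, n = 3), and ITGB4 held 2.16% ± 0.354 and 64.2% ± 0.681. ITGB5 followed with 10.6% ± 1.73 and 6.04% ± 0.43, and ITGB3 with 6.85% ± 2.11 and 0.117% ± 0.0773. Within a group the ITGB1 and ITGB4 shares were far apart, and the order ITGB1, ITGB5, ITGB3, ITGB4 in Vector was ITGB4, ITGB1, ITGB5, ITGB6 in LINC00665, where the ITGB6 share (1.54% ± 0.25) overlapped that of ITGB2 (1.42% ± 0.22). With counts over the longest annotated transcript, ITGB3 (38.7) and ITGB5 (37.3) changed places in Vector. For ITGB3 that transcript is 4 kb in GENCODE v29, shorter than the 5.55 to 5.72 kb that the deposited counts and FPKM imply in Vector. The change of places rests on that shorter length. Among alpha chains ITGA3 led in both groups, with 62.8% ± 10.2 and 68.8% ± 1.95 of the summed FPKM. ITGA6 held 12.1% ± 7.1 and 15.8% ± 0.403, shares that overlapped between the groups, while ITGAV held 8.17% ± 4.52 in Vector and 1.73% ± 0.15 in LINC00665. Summed alpha FPKM was 218 ± 58.2 in Vector and 515 ± 90.4 in LINC00665, and summed beta FPKM was 405 ± 15.2 and 529 ± 27.

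**Figure D2:**
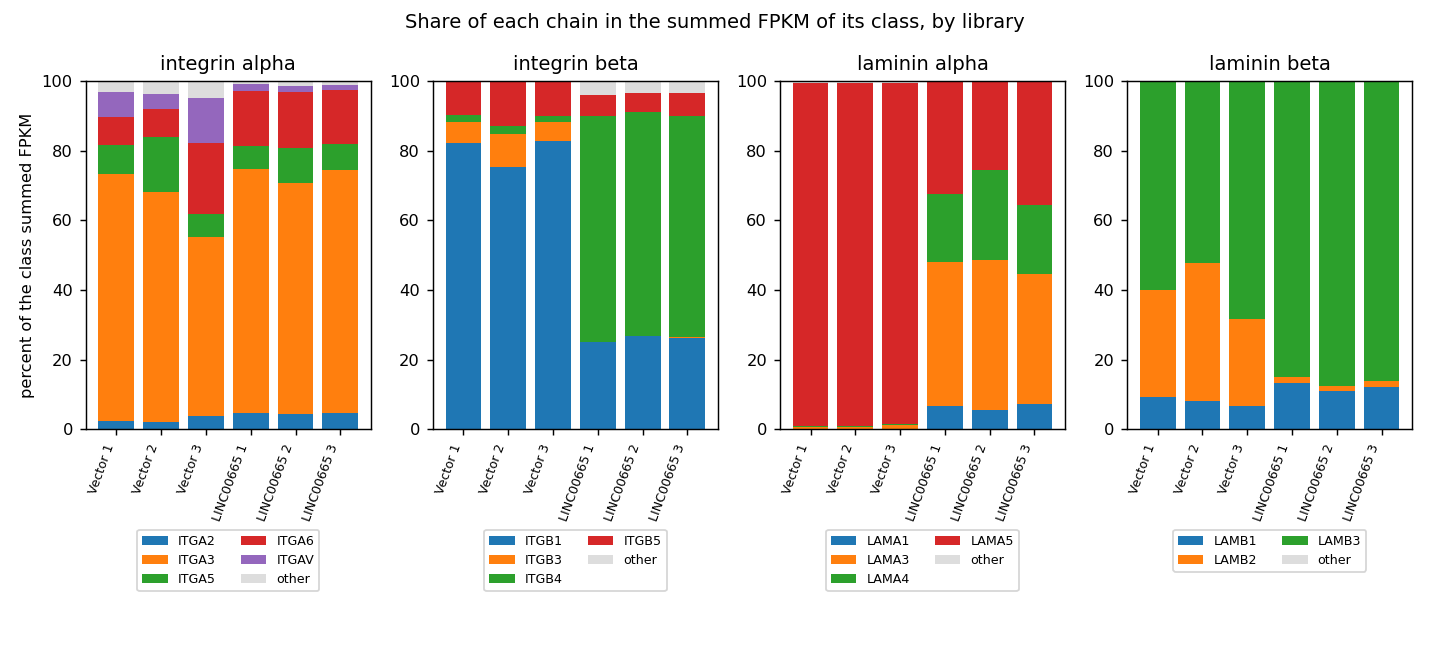
Percent of the summed FPKM of a chain class held by each chain, for integrin alpha, integrin beta, laminin alpha and laminin beta, 1 bar per library. In the beta integrin panel ITGB4 passes from a mean of 2.16% in Vector to 64.2% in LINC00665, and in the laminin alpha panel LAMA3 passes from 0.863% to 40.5%.

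An integrin reaches the surface only as a pair, so each of 24 known pairs was given the FPKM of its scarcer chain in each library. A chain with several partners counts in each of its pairs, and RNA levels do not measure pairing. In these values 11 pairs reached a mean of 1 FPKM in Vector and 10 in LINC00665, 8 of them in both. The hemidesmosome pair α6β4 was at 8.36, 9.99 and 7.79 FPKM in Vector, set by ITGB4, and at 95.2, 68.5 and 79.6 FPKM in LINC00665, set by ITGA6. Its mean was 9.31 times higher in LINC00665, with no overlap and the smallest p that an exact permutation test of 3 against 3 libraries can give (two-sided p = 0.1). ITGB4 stood at 0.388 ± 0.123 of the ITGA6 FPKM in Vector and 4.25 ± 0.582 in LINC00665.

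The α3β1 pair had nearly the same scarcer-chain level in both groups, with a different chain setting it. It was at 176, 169 and 77.8 FPKM in Vector, where ITGA3 was scarcer than ITGB1, and at 140, 140 and 133 FPKM in LINC00665, where ITGB1 was the scarcer. The values overlapped (exact permutation p = 1), and without Vector replicate 3 the difference of the means, LINC00665 minus Vector, was -34.9 in place of -3.3 FPKM. Summed FPKM of the alpha chains that pair with β1 was 0.675 ± 0.225 of the ITGB1 FPKM in Vector and 3.73 ± 0.657 in LINC00665, without overlap. That sum holds ITGA6 and ITGAV, which also pair with other beta chains, so it is not a measure of alpha chains left without a partner. The α2β1 pair was at 5.55 ± 0.572 and 23.4 ± 4.88 FPKM and α6β1 at 23.7 ± 6.08 and 81.1 ± 13.4 FPKM, both without overlap. The collagen receptors α10β1 and α11β1 were at 2.44 ± 0.59 and 1.59 ± 0.898 FPKM in Vector and at 0.0267 ± 0.0153 and 0.0533 ± 0.0231 FPKM in LINC00665.

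Of the αV pairs, αVβ3 was at 17.5, 11 and 19.9 FPKM in Vector and at 0.39, 0.39 and 1.04 FPKM in LINC00665, 26.6 times lower with no overlap. The αVβ6 pair was at 0.15, 0.08 and 0.2 FPKM in Vector and at 10, 7.17 and 6.56 FPKM in LINC00665. αVβ5 was at 16.1 ± 4.58 and 8.98 ± 2.22 FPKM, both set by ITGAV, and its groups overlapped (exact permutation p = 0.2). Summed β3, β5, β6 and β8 FPKM over that of ITGAV came to 4.87 ± 2.56 in Vector and 5.01 ± 0.836 in LINC00665. These values overlapped and were not separated by the libraries, and the sum leaves out ITGB1, which also pairs with αV. On the deposited FPKM, ITGB5 was the highest of the summed chains in both groups, at 42.6 ± 5.92 in Vector and 31.9 ± 1.99 in LINC00665. Next came ITGB3 in Vector (27.6 ± 7.64) and ITGB6 in LINC00665 (8.21 ± 1.75).

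**Figure D3:**
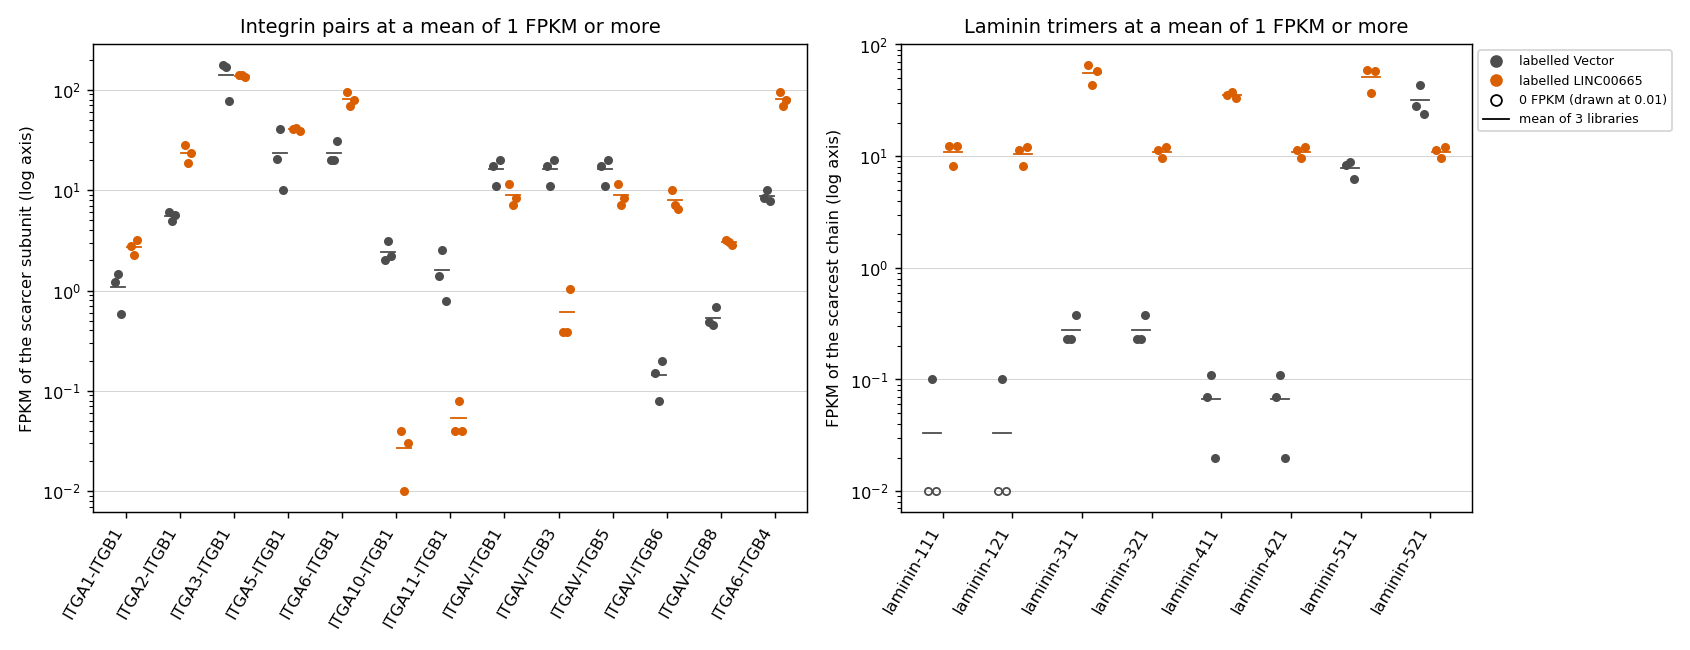
FPKM of the scarcer chain of each integrin pair (left) and of the scarcest chain of each laminin trimer (right), on log axes, for complexes with a mean of 1 FPKM or more in either group. Points are libraries, lines are group means; α6β4 lies near 8.71 FPKM in Vector and 81.1 in LINC00665, and laminin-411 near 0.0667 and 35.2.

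Among the laminin chains LAMB2 was lower in LINC00665, LAMA1, LAMA3, LAMA4, LAMA5, LAMB1 and LAMB3 were higher, and LAMA2 and LAMC1 did not pass the test. The background is again 34.2% of all tested genes higher and 29.3% lower. LAMA3 and LAMB3, chains of the anchoring laminins of epithelia, both rose. LAMA3 was at 2.28, 2.22 and 1.45 CPM in Vector and at 441, 378 and 362 CPM in LINC00665, a 198-fold rise without overlap (log2 fold change 7.63 ± 0.24, edgeR adjusted p = 1.9e-07). LAMB3 was at 182, 192 and 216 CPM in Vector and at 2364, 2392 and 2341 CPM in LINC00665, 12 times higher (3.59 ± 0.14, adjusted p = 3.7e-07). Neither chain overlapped between the groups. On the FPKM scale Vector held LAMB3 at 59 ± 5.78 (SD, n = 3) and LAMA3 at 0.28 ± 0.0866, and LAMB3 stood at 219 ± 40.6 times LAMA3 in Vector and 8.72 ± 0.895 times in LINC00665.

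The other laminin alpha chains set the remaining trimers apart. LAMA4, the chain of vessel and muscle basement membranes, had 0.0466, 0.167 and 0.0517 CPM in Vector and 101, 104 and 88.8 CPM in LINC00665, from 5 and 5796 counts. The ratio of the means was 1108 (log2 fold change 10.06 ± 0.31, edgeR adjusted p = 1.6e-07). LAMA1, the embryonic chain, had 3 counts in Vector, all in replicate 2, and 125, 74.2 and 111 CPM in LINC00665. It was 2041 times higher, with a 95% counting interval from 698 to 9901 (edgeR adjusted p = 1.5e-06). LAMA5, the broadly expressed chain of adult epithelia, was at 300, 534 and 295 CPM in Vector and at 698, 462 and 699 CPM in LINC00665. These groups overlapped, and LAMA5 rose by a log2 fold change of 0.72 ± 0.27 (adjusted p = 0.046), a call that was lost without Vector replicate 1 or 3 or LINC00665 replicate 1 or 3 (adjusted p 0.1 to 0.15), with total-count scaling (0.096) and with the replicate number as a block (0.086). Its exons overlap ADRM1 on the opposite strand. LAMA2, the muscle and nerve chain, was at 1.66 ± 0.308 and 1.12 ± 0.177 CPM and did not pass the test (adjusted p = 0.15).

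Fibroblast markers, of which 1 of 10 reached 1 CPM in Vector and 7 in LINC00665, summed to 2.38 to 4.57 and 245 to 272 CPM. Most of the LINC00665 sum came from THY1 (mean 165 CPM) and COL1A1 (mean 71.3 CPM). Endothelial markers, 0 and 5 of 10 at 1 CPM, summed to 0.746 to 2.48 and 20.1 to 23.3 CPM, with CLDN5 and EMCN at no count in LINC00665. Their part in the rise of LAMA4 and LAMA1 was not tested.

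LAMB1 and LAMB2 moved in opposite directions. LAMB1, the beta chain of laminin-111, laminin-411 and laminin-511, was at 38.4, 40.6 and 30.5 CPM in Vector and at 522, 415 and 459 CPM in LINC00665, a 12.8-fold rise without overlap (log2 fold change 3.67 ± 0.18, edgeR adjusted p = 1.1e-06), and its exons overlap DLD on the opposite strand. LAMB2, the beta chain of kidney glomerulus and neuromuscular junction, was at 149, 236 and 129 CPM in Vector and at 68, 59.2 and 70.2 CPM in LINC00665. It fell by 1.38 ± 0.23 on the log2 scale with no overlap (adjusted p = 0.0011). LAMC1, the gamma chain of most laminins, was at 349, 471 and 368 CPM in Vector and at 546, 374 and 475 CPM in LINC00665, overlapping values that did not pass the test (0.23 ± 0.19, adjusted p = 0.31). On the FPKM scale LAMB1 stood at 0.255 ± 0.0469 of LAMB2 in Vector and at 7.37 ± 0.555 in LINC00665, values that did not overlap (exact permutation p = 0.1). LAMB4 had no count in Vector and 19 in LINC00665, 6.3-fold higher when set against the 3-count floor, and LAMC3 had 2 counts in each group.

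**Figure D4:**
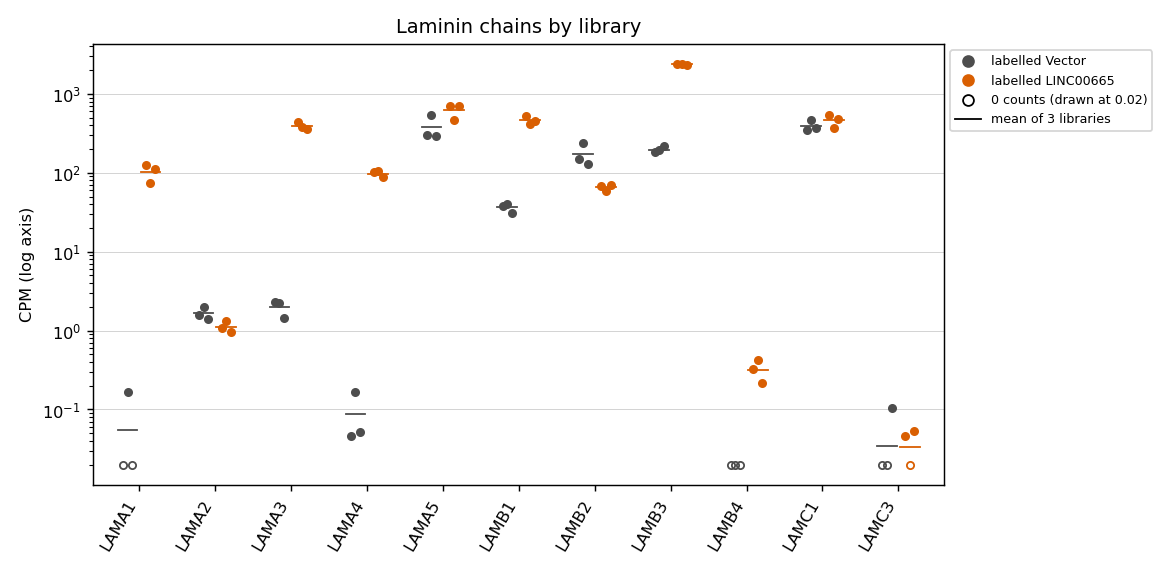
Laminin chains in each library, as CPM on a log axis. Points are the 3 Vector (grey) and 3 LINC00665 (orange) libraries, lines are group means and open points are libraries with 0 counts; LAMA3 lies at 1.45 to 2.28 CPM in Vector and at 362 to 441 CPM in LINC00665, while LAMC1 overlaps.

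Within the laminin alpha and beta classes the leading chain was read on the FPKM scale. LAMA5 held 98.4% ± 0.323 of laminin alpha FPKM in Vector and 31.2% ± 5.15 in LINC00665 (SD, n = 3). In LINC00665, LAMA3 held 40.5% ± 2.96, LAMA4 21.7% ± 3.54 and LAMA1 6.6% ± 0.897, and each of them was under 1% on average in Vector. LAMB3 led the beta class in both groups with 60.2% ± 8.08 and 86.3% ± 1.3, and LAMB2 went from 31.8% ± 7.35 to 1.64% ± 0.138. Summed laminin alpha and beta FPKM was 36 ± 12.5 and 98.6 ± 9.24 in Vector and 164 ± 17.5 and 666 ± 21.6 in LINC00665.

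Of 13 trimers compared, 2 had a scarcest chain at a mean of 1 FPKM or more in Vector, laminin-511 and laminin-521, and 8 did in LINC00665, including both of those. Laminin-311, an epithelial α3 trimer, was at 0.23, 0.23 and 0.38 FPKM in Vector, set by LAMA3, and at 65.1, 43.3 and 58.2 FPKM in LINC00665, set by LAMC1. This was a 198-fold difference of the means with no overlap. Laminin-511, the main laminin of adult epithelia, was at 8.35, 8.83 and 6.3 FPKM in Vector, set by LAMB1, and at 58.6, 37.1 and 58.2 FPKM in LINC00665. Laminin-521 went the other way, from 28.1, 43.1 and 24 FPKM to 11.3, 9.55 and 12 FPKM, set by LAMB2 in both groups. Laminin-411 was at 0.07, 0.11 and 0.02 FPKM in Vector and at 35.1, 37.5 and 33.1 FPKM in LINC00665, and laminin-111 at 0.0333 ± 0.0577 and 10.9 ± 2.39 FPKM. None of these trimers overlapped between the groups, each with the smallest exact permutation p of 0.1. With counts over the longest annotated transcript, the difference of the means was 34.7 in place of 55.3 for laminin-311, then set by LAMA3 in LINC00665, and 14.1 in place of 35.1 for laminin-411.

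Count and FPKM together imply the transcript length that the deposited FPKM used for a gene in a library. For a gene with several transcripts this can be an average over them. For the 456 to 576 genes with 1 annotated transcript, the median ratio of implied to annotated length was 1 in every library. Across libraries its 5th percentile was 0.782 to 0.83 and its 95th 1.27 to 1.38. Genes with several transcripts were not part of that check. In LINC00665 the implied length of LAMA3 was 5.63, 5.53 and 5.65 kb. GENCODE v29 lists a 5.67 kb LAMA3 transcript from an internal start, just upstream of the stretch printed here, and a 10.7 kb one from the upstream start. In Vector the implied length was 10.6, 10.1 and 4.04 kb, values that rest on 117 counts in all 3 libraries and that overlapped with LINC00665 (exact permutation p = 0.4). For LAMA4 the implied length in LINC00665 was 2.73, 2.54 and 2.61 kb, shorter than the coding transcripts of 5.98 to 6.55 kb and close to a 2.73 kb transcript annotated as retaining an intron. LAMA4 has 22 annotated transcripts, the shortest 0.331 kb, so its implied length may be an average of long and short ones. The counts do not show which transcript the reads came from.

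These lengths also bear on the order of laminin alpha chains. With counts divided by the longest annotated transcript, LAMA5 held 46.3% ± 5.18 of the laminin alpha total in LINC00665, LAMA3 32% ± 3.67, LAMA4 13.1% ± 2.53 and LAMA1 8.47% ± 1.1. On that scale LAMA5 and not LAMA3 came first in LINC00665, while LAMA5 held 98.8% in Vector. LAMA4 was then at 14.1 ± 0.8 in place of 35.2 ± 2.2 FPKM, and LAMA3 at 34.9 ± 3.69 in place of 66.4 ± 6.73 FPKM. Of the 20 members whose length could be read in all 6 libraries, none differed past 1.5-fold between the groups, against 1.25% of 10878 genes. The groups did not overlap in 7 of the 20, a share near the 30.7% of those genes. LINC00665 over Vector, the 7 ratios were 1.1 for LAMB1 and LAMB3, 1.06 for ITGB3, 1.03 for ITGA6, 0.971 for ITGA3, 0.963 for ITGB4 and 0.901 for ITGA5.

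**Figure D5:**
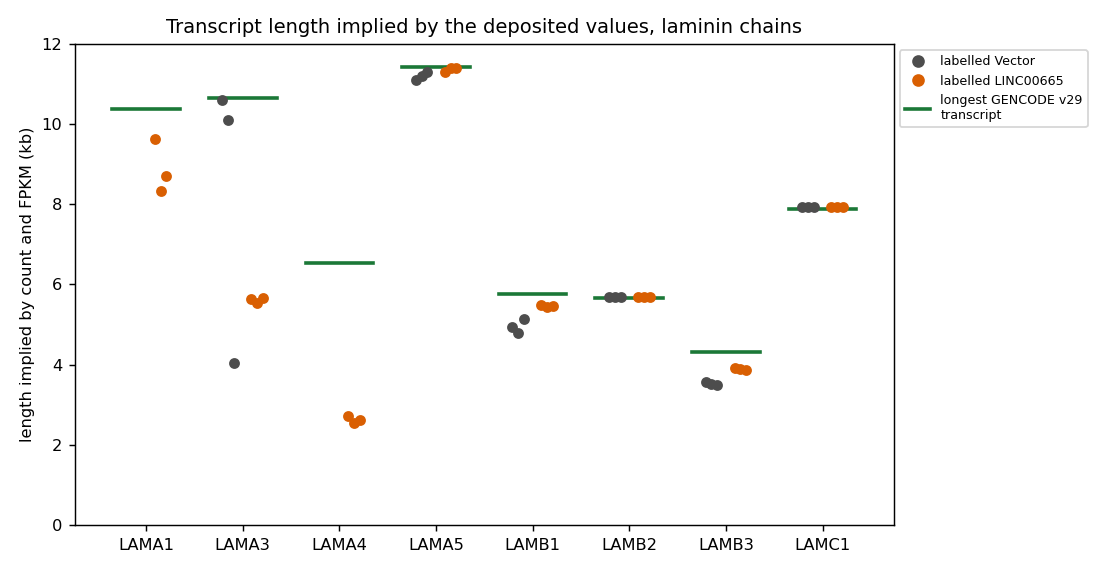
Transcript length implied by the deposited count and FPKM of 8 laminin chains, in kb, 1 point per library where the gene had enough counts. Green bars mark the longest GENCODE v29 transcript; LAMA3 lies at 5.53 to 5.65 kb in LINC00665 and LAMA4 at 2.54 to 2.73 kb, below their bars.

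The genes around the members were counted from 5 lists, and CD151 and FERMT1 each stand on more than 1 of them. Of 10 hemidesmosome and anchoring genes, all tested, 7 were higher in LINC00665 and 1 lower, against 34.2% and 29.3% of all tested genes, with a median log2 fold change of 1.41 against 0.03. KRT5, the basal cell keratin, rose from 0.383 ± 0.19 to 835 ± 45.3 CPM (edgeR adjusted p = 1.3e-07), COL17A1, the transmembrane collagen of hemidesmosomes, from 0.518 ± 0.41 to 223 ± 49 CPM (adjusted p = 2.3e-06), and COL7A1, the anchoring fibril collagen, from 2.05 ± 0.79 to 247 ± 13.7 CPM (adjusted p = 4.8e-07). DST, the gene of the plaque protein that ties keratin to α6β4, fell by 1.09 ± 0.17 on the log2 scale (adjusted p = 0.00071). KRT5 and COL17A1 are among the 3 of these genes that passed the filter only through LINC00665.

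Of the 29 tested other laminin binders and basement membrane genes, 20 were higher and 7 lower, against 34.2% and 29.3% of all tested genes, with a median log2 fold change of 1.52. TINAGL1, a matrix protein related to tubulointerstitial nephritis antigen, rose from 4 ± 2 to 2110 ± 380 CPM (edgeR adjusted p = 8.8e-07), SPARC, a collagen-binding matrix glycoprotein, from 0.487 ± 0.398 to 116 ± 7.33 CPM (adjusted p = 1.6e-06), and EFEMP1, a fibulin, from 0.121 ± 0.0397 to 30.6 ± 4.22 CPM (adjusted p = 3.1e-07). COL18A1, a basement membrane collagen, fell by 3.80 ± 0.18 (adjusted p = 9.1e-07), and SDC2, a heparan sulfate proteoglycan, fell by 5.38 ± 0.36 on the log2 scale (adjusted p = 5.6e-06). The filter was passed only through LINC00665 by 8 of the higher genes, SPARC and EFEMP1 among them, so these had to be higher.

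Of 37 tested ligands of integrins other than laminins, 23 were higher and 7 lower, against 34.2% and 29.3% of all tested genes, with a median log2 fold change of 1.89. Only through LINC00665 did 10 of the higher genes pass the filter, CDH1 among them, and SPP1 among the lower genes passed only through Vector. These 10 genes and SPP1 had to differ as they did. CDH1, E-cadherin and the ligand of αEβ7, rose from 0.377 ± 0.203 to 266 ± 15.9 CPM (edgeR adjusted p = 2.5e-07). COL1A1, a collagen I chain, rose from 1.64 ± 0.396 to 71.3 ± 5.23 CPM (adjusted p = 4.5e-07), and THBS2, a thrombospondin, from 1.04 ± 0.152 to 20 ± 1.12 CPM (adjusted p = 1.2e-06). NPNT, the nephronectin ligand of α8β1, was at 207 ± 56.3 CPM in Vector and 1.05 ± 0.348 CPM in LINC00665 (log2 fold change -7.61 ± 0.35, adjusted p = 8.3e-07), and ITGA8 had no count in either group. FBN1, the fibrillin of microfibrils, fell by 2.88 ± 0.36 on the log2 scale (adjusted p = 0.00021). SPP1, osteopontin and a ligand of αVβ3, had 333 counts in Vector and 2 in LINC00665, 167 times more in Vector (95% counting interval 46 to 1388, adjusted p = 8.6e-05).

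Inside the cell, 16 of 41 tested talin, kindlin and focal adhesion adaptors were higher and 11 lower, shares not far from the 34.2% and 29.3% of all genes, with a median log2 fold change of 0.10. TLN1, the talin that links beta tails to actin, fell by 1.63 ± 0.17 on the log2 scale from 892 ± 128 to 288 ± 42.6 CPM (edgeR adjusted p = 7.7e-05). CRK and DOCK1, which pass integrin signals to Rac, fell by 1.48 ± 0.14 (adjusted p = 3.4e-05) and by 1.75 ± 0.16 (adjusted p = 4e-05). TNS4, a tensin that binds beta tails without an actin link, rose from 0.52 ± 0.224 to 110 ± 11.9 CPM (adjusted p = 3.6e-07), FLNC, a filamin, from 0.398 ± 0.256 to 339 ± 42.6 CPM (adjusted p = 3.7e-07) and NEDD9, a Cas-family scaffold, from 0.514 ± 0.47 to 329 ± 24.5 CPM (adjusted p = 1.3e-06). These 3 higher adaptors passed the filter only through LINC00665.

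Of 22 tested genes on the list of integrin inhibitors and trafficking factors, 14 were higher and 3 lower, against 34.2% and 29.3% of all tested genes. Their median log2 fold change was 0.87. The list also holds surface partners of integrins, and CD151, CD9, CD81, CD82, SLC3A2 and BSG were among the 14 higher. THY1 and RAB25 passed the filter only through LINC00665 and so had to be higher. THY1, a surface glycoprotein that binds integrins, had 3 counts in Vector and 9686 in LINC00665, 3211 times more (95% counting interval 1098 to 15574, edgeR adjusted p = 2e-07). RAB25, which recycles α5β1, had 2 and 1760 counts, 875 times more (interval 242 to 7233, adjusted p = 4.4e-07), and DAB2, an endocytic adaptor, rose from 1.72 ± 0.65 to 52.3 ± 3.42 CPM (adjusted p = 2.1e-06). ITGB1BP1, the β1 tail binder ICAP1, fell by 0.57 ± 0.14 (adjusted p = 0.0064), SNX17, which retrieves β1 chains from lysosomal sorting, by 0.65 ± 0.18 (adjusted p = 0.014) and NUMBL, an endocytic adaptor, fell by 0.39 ± 0.13 on the log2 scale (adjusted p = 0.029). Without LINC00665 replicate 3, 1 gene of this list was called lower in place of 3.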

How the data were processed

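RNA was measured in 6 libraries labelled T24, 3 per group. The labels' protocols name TRIzol extraction and an Illumina TruSeq RNA kit, and the submitters' processing notes name HISAT2 2.0.4 and hg38. Which counting tool, annotation and strand setting were used is not given in the sources used here. Per the file headers, the authors deposited an expected count per gene and library, not normalised, with 88.3 to 89.4% of the values whole, and FPKM normalised for length and depth. Groups came from the labels.

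Expected counts (17289788 to 22725687 per library) were rounded, filtered with filterByExpr (0.511 CPM in at least 3 libraries), scaled by TMM and tested with edgeR 4.0.16 (glmQLFTest) in R 4.3.3, with Benjamini-Hochberg adjustment over 13552 genes at 0.05 and no fold minimum. The fit was tested on simulated data. Intervals were taken on counts pooled over the 3 libraries of a group, so they cover counting error only and leave out the spread between libraries. The 3-count floor stands in for a group with 0 counts, and ratios against it carry no error of the other group. The reads also carry no molecular identifiers. Permutation tests over libraries were exact and two-sided. Implied length is count over FPKM and library total, for at least 20 counts and 0.2 FPKM. Both it and the longest-transcript scale were added with the data in view. Libraries of one label differed pairwise by more than sampling noise (chi-square per degree of freedom 9.85 to 116), so none was counted as a duplicate.

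GENCODE v29 held 20171 of the identifiers. Values by library are given for the 23 members past the threshold with a log2 fold change of at least 1 in size and 5 CPM in either group, or with 10 FPKM in either group, and 14 others are summarised. Results that need 1 further member and some list genes are not reported here. Of each list, up to 3 genes per direction with the smallest p are named. The members, complexes and lists were chosen with earlier results of these data known. Alternatives were other size factors, filters and thresholds, DESeq2 1.42.0, limma 3.58.1 (voom, and trend on log2 FPKM with pseudocounts of 1 and 0.1), a replicate block, and each library left out.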

Additional observations from a re-analysis of the deposited data

How the results depend on the processing

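Across the alternatives, none of 428 recomputed log2 fold changes of the 29 tested members changed direction, 398 kept their side of the threshold, 24 lost the call and 6 gained one. The losses were in ITGA7, ITGAE, ITGAV and LAMA5, and the gains in ITGA2B, ITGA5 and ITGB5. Total-count scaling moved the median log2 fold change of all genes from 0.03 to -0.13 and the calls to 4174 higher and 4770 lower, against 4634 and 3977. With the test kept to genes whose mean reached 1 CPM in Vector and in LINC00665, 12 members were called higher in place of 17 and 4 lower in place of 7, and by list the calls were 4 hemidesmosome genes higher in place of 7, 13 non-laminin ligands higher and 4 lower in place of 23 and 7, and 12 laminin binders higher in place of 20. That filter removes genes near 0 in one group. At an adjusted p of 0.01, 4 non-laminin ligands and 1 inhibitor or trafficking factor were called lower. Leaving out each library in turn gave 1 to 3 inhibitors and trafficking factors called lower, and the cause was not tested. The difference of α3β1 in scarcer-chain FPKM, LINC00665 minus Vector, was -3.3 and turned to 12.4 with TMM-rescaled FPKM and 12.2 with counts over the longest transcript, and it ranged from -34.9 to 14.2 with a library left out. That of the ITGA5 share of alpha chain FPKM was -2.2 percentage points and ranged from -3.99 to 0.634. With the replicate block, 4419 genes were called higher and 3505 lower, and LAMA5 and ITGA7 lost their calls (adjusted p 0.086 and 0.08). Deviations of same-numbered libraries correlated at 0.246, -0.171 and -0.221, so the numbers do not pair the libraries, and not every library correlated best with its own number. With 3 libraries a group, an exact permutation p cannot go below 0.1.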
